A study of Mus musculus with 6 samples.

Results

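Clade B serpins are intracellular protease inhibitors of the ovalbumin type, and 10 of them were followed here in keratinocytes, the epithelial cells of the epidermis. The members were chosen by symbol: Serpinb1a, Serpinb2, Serpinb3a, Serpinb5, Serpinb6a, Serpinb6b, Serpinb8, Serpinb9, Serpinb11 and Serpinb12. All 10 were found among the 55416 genes of the count table, out of 28 clade B serpin genes matched in it, and all 10 passed the filter on low counts. The cells were primary keratinocytes of C57BL/6J:129 hybrid mice aged 1 to 2 days, kept at 0.05 mM calcium in medium with EGF and bovine pituitary extract that, after an initial day, was free of serum. UVB (312 nm lamp, 10 mJ/cm2) was given 5 days after plating, and cells were collected 8 h later. The groups are 3 wild type libraries (1, 2 and 3) and 3 libraries of Cebpb knockout cells (4, 5 and 6). Both groups received UVB and no unirradiated library was used here, so the comparison is between genotypes after UVB. Cebpb encodes the transcription factor C/EBPβ. Whether the libraries stand for separate animals or dishes is not stated in the labels, so the p-values rest on a spread that may be technical.

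A serpin inhibits a protease by offering its reactive centre loop as bait. Cleavage springs the loop into the body of the serpin and leaves the protease trapped and distorted. Clade B members lack a classical secretion signal and act mostly inside the cell, where they are known to guard against granzymes, cathepsins and other proteases that reach the cytoplasm. In the epidermis they are best known from the differentiating layers, and inherited loss of human SERPINB7 or SERPINB8 causes scaling or peeling skin.

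The labels were checked first. Cebpb counts were 18184, 17628 and 12036 in wild type and 78, 109 and 78 in knockout libraries. Total counts ran from 107757415 to 122797031 in wild type and from 81256192 to 92987497 in knockout libraries, so that 3 counts equal at most 0.0349 CPM in any library (CPM are read counts scaled to a common library size). The basal keratinocyte markers Krt5, Krt14, Krt15, Trp63, Itga6, Itgb4 and Col17a1 summed to 35245 to 40064 CPM in wild type libraries and 20533 to 21651 CPM in knockout libraries, in keeping with the labelled cell type. Of these 7 markers, 6 were called lower and 1 higher in knockout cells, where 23.7% and 24.8% of all tested genes were. Transcripts of 4 Y-linked genes reached 60.7 to 68.1 CPM together in wild type but 0.101 to 0.158 CPM in knockout libraries, while Xist stood at 387 to 415 and 567 to 604 CPM. Every wild type library thus held both Y-linked transcripts and Xist, and every knockout library held Xist with Y-linked transcripts at no more than 0.158 CPM. Sex-linked transcripts therefore moved with genotype in every library, and their part in the results below cannot be told apart from that of the deletion.

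The clade B serpins of keratinocytes moved in both directions with loss of Cebpb. Serpinb2, Serpinb3a, Serpinb5, Serpinb8, Serpinb11 and Serpinb12 were lower in knockout cells, and Serpinb1a, Serpinb6a and Serpinb9 were higher. Serpinb6b was not called. The falls ran from 1.15-fold for Serpinb5 to 4.02-fold for Serpinb2, and the rises from 1.32-fold for Serpinb6a to 2.48-fold for Serpinb1a. A gene was called when edgeR's quasi-likelihood test gave it an adjusted p (Benjamini-Hochberg, over all 17659 genes tested) under 0.05. By that rule 3 of 10 members were higher, where 24.8% of all tested genes were, and 6 of 10 were lower, where 23.7% of all tested genes were. In either direction it was 9 of 10 members and 48.6% of all tested genes. The 6 lower members include Serpinb3a, whose knockout libraries alone would not have passed the filter on low counts. Members were chosen with earlier results of these data known, which limits a comparison with these shares. The 6 lower members lie on chromosome 1 and the other 4 on chromosome 13. The median log2 fold change of all 10 was -0.52, against 0.01 over all genes tested. The knockout libraries all lay above or all lay below the wild type libraries in 9 of the 10 members. The same held for 56.4% of all tested genes, 28.7% with knockout libraries above and 27.6% with knockout libraries below. Library totals in place of TMM scaling raised log2 fold changes by 0.20 at the median, and then 36.7% of all tested genes were called higher, 13.9% lower and 50.6% either way. Under library totals 3 members were higher and 5 lower, because Serpinb5 was no longer called.

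**Figure D1:**
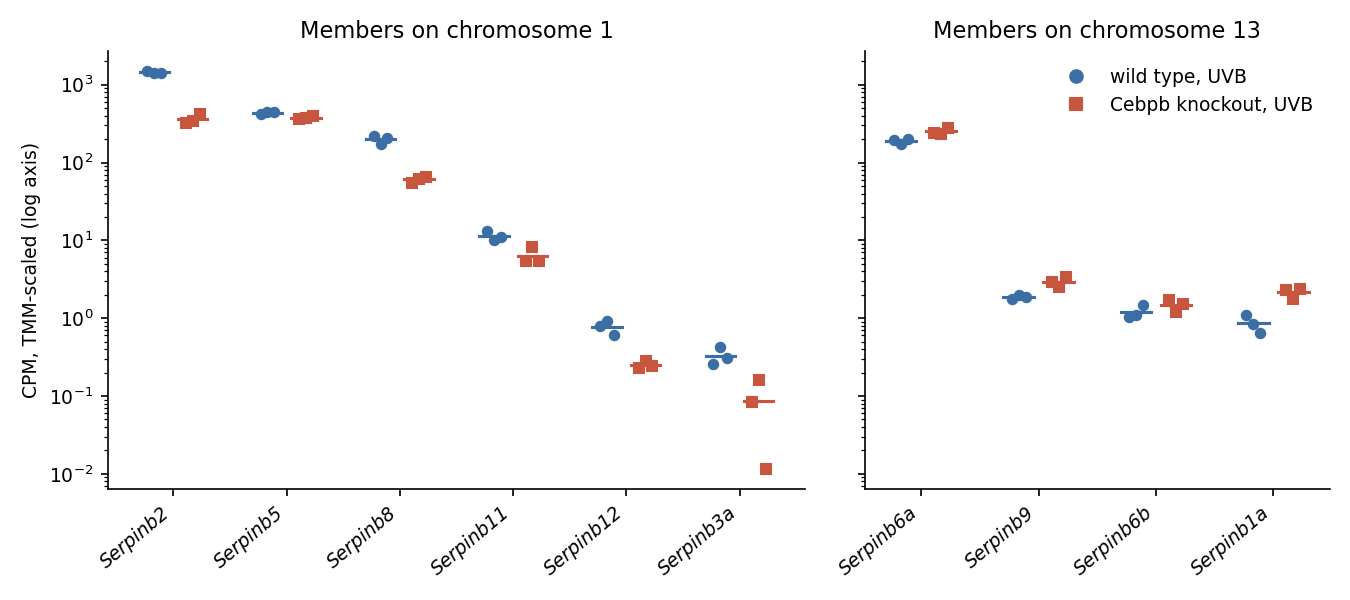
CPM of each member in each library, on a log axis, with members on chromosome 1 at left and on chromosome 13 at right. Points are libraries (circles wild type, squares knockout, 3 each) and lines are group means. The groups are apart in every member except Serpinb6b, with the Serpinb5 difference gone under library totals.

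Promoter sequences of 9 members were found in a table of RefSeq promoters (build GRCm38.p6), each window holding 250 bases before and 50 bases after a transcription start. Serpinb1a was not among them. They are given to describe a short sequence match that most members on chromosome 1 hold. The letters TGANTCA, the AP-1 motif bound by Fos and Jun proteins, which read the same on both strands, were found in the windows of 5 of 6 members on chromosome 1 and of 0 of 3 members on chromosome 13. Over all clade B serpins with a window, the counts were 7 of 11 and 0 of 15. Of all 27025 genes of the table, 8.97% held the motif. The 7 holders were all called lower, where 23.7% of all tested genes were, among them Serpinb5, whose call was lost with library totals. They all lie on chromosome 1, where 9 of 9 tested clade B serpins were called lower, with or without a match. Serpinb3a (log2 fold change -1.91) and Serpinb3b (-3.85) of chromosome 1 and Serpinb6c of chromosome 13 (-1.96) were called lower without a match. The part of the match in the falls was not tested. The printed stretches are the 250 bases before the most upstream start, 5′ to 3′ on the strand of the gene, in lower case with each AP-1 match in capitals. They are chr1:107511173-107511422 for Serpinb2, chr1:107589756-107590005 for Serpinb8, chr1:106860925-106861174 for Serpinb5, chr1:107362064-107362313 for Serpinb11 and chr1:106934199-106934448 for Serpinb12, all on the plus strand. For contrast, chr1:107052304-107052553 (minus strand) shows Serpinb3a, the member on chromosome 1 without a match, and chr13:33004291-33004540 (plus strand) shows Serpinb9, a member that rose.
Serpinb2: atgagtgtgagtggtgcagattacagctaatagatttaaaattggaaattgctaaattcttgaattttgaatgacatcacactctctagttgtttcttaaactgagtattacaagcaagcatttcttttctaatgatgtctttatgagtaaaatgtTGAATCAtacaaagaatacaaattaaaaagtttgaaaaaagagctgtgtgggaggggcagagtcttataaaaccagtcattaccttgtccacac
Serpinb8: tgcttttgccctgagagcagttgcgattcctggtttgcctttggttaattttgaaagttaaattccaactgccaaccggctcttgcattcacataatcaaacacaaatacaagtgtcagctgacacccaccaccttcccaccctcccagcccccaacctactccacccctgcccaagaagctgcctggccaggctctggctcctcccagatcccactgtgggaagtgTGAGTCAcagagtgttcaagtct
Serpinb5: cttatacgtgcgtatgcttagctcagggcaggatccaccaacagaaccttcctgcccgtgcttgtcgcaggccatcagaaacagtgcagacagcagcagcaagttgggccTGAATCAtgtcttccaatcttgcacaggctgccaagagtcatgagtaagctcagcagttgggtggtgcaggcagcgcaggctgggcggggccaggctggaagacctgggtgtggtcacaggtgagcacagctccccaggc
Serpinb11: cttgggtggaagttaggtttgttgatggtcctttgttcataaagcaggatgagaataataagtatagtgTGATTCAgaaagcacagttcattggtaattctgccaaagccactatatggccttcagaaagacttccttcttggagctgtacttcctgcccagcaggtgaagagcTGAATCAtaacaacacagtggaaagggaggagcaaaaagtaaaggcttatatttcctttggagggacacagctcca
Serpinb12: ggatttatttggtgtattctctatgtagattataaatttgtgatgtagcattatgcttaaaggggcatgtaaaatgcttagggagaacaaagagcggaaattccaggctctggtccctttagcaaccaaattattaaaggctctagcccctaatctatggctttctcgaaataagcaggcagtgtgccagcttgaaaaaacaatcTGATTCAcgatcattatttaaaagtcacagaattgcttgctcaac
Serpinb3a: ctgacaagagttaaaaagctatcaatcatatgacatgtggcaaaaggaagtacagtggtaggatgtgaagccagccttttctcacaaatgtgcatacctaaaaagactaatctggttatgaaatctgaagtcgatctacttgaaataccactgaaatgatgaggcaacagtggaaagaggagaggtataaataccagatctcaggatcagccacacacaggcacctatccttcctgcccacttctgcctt
Serpinb9: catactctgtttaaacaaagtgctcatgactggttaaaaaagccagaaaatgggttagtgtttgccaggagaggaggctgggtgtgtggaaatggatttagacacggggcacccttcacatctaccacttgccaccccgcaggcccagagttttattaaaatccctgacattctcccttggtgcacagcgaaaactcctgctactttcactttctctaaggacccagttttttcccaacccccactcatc

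The match began 94 bases before the start in Serpinb2, 23 in Serpinb8, 140 in Serpinb5 and 45 in Serpinb12. A further match in Serpinb8 reached past the start and is not shown. Serpinb11 held 2 matches, 181 and 76 bases before its start. The letters TTNNGNAA, a loose form of the C/EBP site searched on both strands, were in the windows of 8 of 9 members and 22 of 26 clade B serpins, where 44.1% of all genes held them. By chromosome, they were in 5 of 6 members on chromosome 1 and 3 of 3 on chromosome 13. Among all clade B serpins with a window the counts were 9 of 11 and 13 of 15. A loose form of the NF-kB motif, on both strands, was in 3 of 9 members and in 53.5% of all genes. Base composition differs between these sets, with a median GC content of 39.7% in the clade B windows of chromosome 1, 51.0% in those of chromosome 13 and 52.8% over all genes, and its part in the counts of matches was not tested. A match describes letters only, and the files hold no measure of binding.

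Serpinb2 (ENSMUSG00000062345) was the most abundant member in wild type cells, while in knockout cells its libraries overlapped with those of Serpinb5. Serpinb2 encodes plasminogen activator inhibitor 2, which inhibits urokinase and is mostly kept inside the cell. Its level was 1516, 1413 and 1432 CPM in the wild type libraries and 321, 341 and 424 CPM in the knockout libraries. The lowest wild type library was thus far above the highest knockout library. It fell by 2.01 ± 0.09 log2 units (SE, edgeR adjusted p = 6.89e-11, n = 3 each), from 1454 ± 55.0 to 362 ± 54.6 CPM (SD). In bulk samples fewer cells that express a gene and less RNA per cell cannot be told apart.

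Serpinb8 (ENSMUSG00000026315), an inhibitor of the proprotein convertase furin, followed Serpinb2 in direction. Its level was 222, 176 and 205 CPM in wild type libraries and 55.2, 62.1 and 64.7 CPM in knockout libraries. Here too no libraries overlapped, and it fell by 1.73 ± 0.08 log2 units (SE, edgeR adjusted p = 9.60e-11), or 3.31-fold. Furin itself was close in both groups, with means of 296 ± 16.7 and 303 ± 10.1 CPM (log2 fold change 0.03 ± 0.06, edgeR adjusted p = 0.680). Under library totals Furin was called higher (0.23, edgeR adjusted p = 0.00286).

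Serpinb5 (ENSMUSG00000067006), known as maspin, does not inhibit proteases and was first described as a tumour suppressor of mammary epithelium. Its level was 421, 443 and 440 CPM in wild type libraries and 367, 370 and 398 CPM in knockout libraries. The groups did not overlap, but the gap was small, and the level fell by 0.20 ± 0.06 log2 units (SE, edgeR adjusted p = 0.00683). With library totals the log2 fold change of Serpinb5 was -0.0025 (edgeR adjusted p = 0.974), so its call depends on the scaling. Its value of 1.15-fold under TMM scaling was small beside 4.02-fold for Serpinb2 and 3.31-fold for Serpinb8.

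Serpinb11 (ENSMUSG00000026327), whose mouse product inhibits trypsin-like proteases, was a member of moderate level. It stood at 13.2, 9.99 and 10.9 CPM in wild type libraries and 5.47, 8.10 and 5.50 CPM in knockout libraries. Knockout library 5 came closest to the wild type libraries without reaching them. It fell by 0.84 ± 0.16 log2 units (SE, edgeR adjusted p = 3.06e-04).

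Serpinb12 and Serpinb3a were scarce. Serpinb12 (ENSMUSG00000059956), an inhibitor of trypsin-like proteases found in many epithelia, had 89, 107 and 60 counts in wild type and 22, 28 and 21 counts in knockout libraries. It fell by 1.61 ± 0.33 log2 units (SE, edgeR adjusted p = 6.57e-04), from 0.773 ± 0.161 to 0.253 ± 0.0267 CPM. Serpinb3a (ENSMUSG00000044594), a mouse relative of the squamous cell carcinoma antigens, which inhibit cathepsins as well as serine proteases, had 29, 49 and 31 counts in wild type and 8, 16 and 1 counts in knockout libraries. Its log2 fold change was -1.91 ± 0.62 (SE, edgeR adjusted p = 0.0174). That call rested on single libraries: without wild type replicate 2 the value was -1.70 (edgeR adjusted p = 0.0744), and without knockout replicate 6, the library with 1 count, it was -1.42 (edgeR adjusted p = 0.0603). Without knockout replicate 5, the library with 16 counts, it was -2.73 (edgeR adjusted p = 0.00860).

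Among the members that were higher in knockout cells, Serpinb6a (ENSMUSG00000060147) was the only abundant one. It inhibits cathepsin G and trypsin-like proteases and is present in most tissues. Its level was 195, 174 and 202 CPM in wild type libraries and 241, 233 and 282 CPM in knockout libraries, without overlap. It rose by 0.40 ± 0.07 log2 units (SE, edgeR adjusted p = 2.89e-04), from 190 ± 14.5 to 252 ± 26.0 CPM. An antisense gene next to it, 1110046J04Rik, was also higher (log2 fold change 1.11 ± 0.21, SE). The strand setting of the counting is not given in the sources used here, so reads of such a pair cannot be told apart, although the antisense gene reached only 1.95 CPM in knockout cells.

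Serpinb1a and Serpinb9 rose from low levels. Serpinb1a (ENSMUSG00000044734), an inhibitor of neutrophil elastase and related proteases, had 124, 98 and 64 counts in wild type and 222, 173 and 205 counts in knockout libraries. It rose by 1.31 ± 0.23 log2 units (SE, edgeR adjusted p = 2.11e-04), from 0.865 ± 0.236 to 2.15 ± 0.355 CPM. Serpinb9 (ENSMUSG00000045827), the inhibitor of granzyme B by which cytotoxic cells protect themselves, stood at 1.75, 1.96 and 1.86 CPM in wild type libraries and 2.94, 2.55 and 3.35 CPM in knockout libraries. It rose by 0.67 ± 0.17 log2 units (SE, edgeR adjusted p = 0.00397). All knockout libraries were above all wild type libraries for both genes.

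Serpinb6b (ENSMUSG00000042842), a relative of Serpinb6a that inhibits granzyme A, had 115, 129 and 149 counts in wild type and 164, 119 and 129 counts in knockout libraries. The groups overlapped, and the log2 fold change of 0.29 ± 0.23 was not called (SE, edgeR adjusted p = 0.324).

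Because Serpinb1a, Serpinb6b and Serpinb9 are best known from blood cells, markers of such cells are given beside them. Of 6 myeloid markers, 3 were tested and all 3 were lower in knockout cells, as were 23.7% of all tested genes. Their sum was 49.1 to 59.6 CPM in wild type libraries and 28.1 to 31.4 CPM in knockout libraries, of which Cd68, a lysosomal gene, made 49.1 and 27.2 CPM on average. Ptprc, the defining marker of leukocytes, stood at 0.0197 CPM on average in wild type and at 0 in knockout libraries, and Lyz2 at 1.13 and 0.0439 CPM. The 5 T cell markers summed to 0 to 0.0702 CPM in wild type libraries and 0.454 to 0.641 CPM in knockout libraries, with Cd3e, Cd8a and Nkg7 at 0 in all libraries and Trac alone called higher. The 5 melanocyte markers together stood at 676 to 766 CPM in wild type libraries and 595 to 674 CPM in knockout libraries. Under TMM scaling 3 of 5 were called lower, as were 23.7% of all tested genes. The part of melanocytes in the serpin values was not tested. The lists for Langerhans cells, mast cells, fibroblasts, endothelial cells and Merkel cells each reached at most 6.92 CPM in any library, with Cpa3, Mcpt4, Lum and Cdh5 at 0 in all. Of these lists Cd74, which antigen-presenting cells express, was called higher, from 0.172 to 0.379 CPM (log2 fold change 1.13, edgeR adjusted p = 0.0476). Called lower were Kit (-0.78), Pdgfra (-0.93) and Kdr (-0.42). The part of such cells in the rises of Serpinb1a and Serpinb9 was not tested.

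The directions of the members split by chromosome. Chromosome had not been used to choose the members, but members and lists were chosen with earlier results of these data known. Mouse clade B serpins lie in 2 clusters, on chromosomes 1 and 13. All 6 members on chromosome 1 were called lower, and of the 4 on chromosome 13 none was lower, 3 were higher and 1 was not called. Over all clade B serpins that were tested, 9 of 9 on chromosome 1 were lower, with a median log2 fold change of -1.73. On chromosome 13, 4 of 11 were higher, 1 was lower and 6 were not called, with a median of -0.10. The 9 falls include Serpinb5, whose call was lost with library totals, and Serpinb3a, whose call was lost without either of the libraries named above. Serpinb3a and Serpinb3b passed the filter on low counts because of their wild type libraries, as their knockout libraries alone fell short of it. With the level of their knockout libraries in both groups, these genes would not have been tested. Other tested genes of chromosome 1 were called lower in 23.8% of 1043 cases and those of chromosome 13 in 21.0% of 710, and called higher in 26.0% and 26.2%. The difference between the clusters was not tested.

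The falls of tested serpins on chromosome 1 spanned the cluster from Serpinb5 to Serpinb8, within which Serpinb13, Serpinb3c and Serpinb3d were not tested. Just outside the cluster, next to Serpinb5 (log2 fold change -0.20), Vps4b was lower (-0.40) and Kdsr was not called (-0.14). On the same side the survival gene Bcl2 was higher (0.49, edgeR adjusted p = 0.0321). The call of Bcl2 was lost without wild type replicate 1 or 2 and without knockout replicate 4 or 6 (edgeR adjusted p = 0.0539 to 0.113). Beyond Serpinb8, the genes Gm8173, Dsel and Tsn were not called (-0.45, 0.10 and -0.13). Around the cluster of chromosome 13, Wrnip1 (0.46), 1110046J04Rik (1.11) and Nqo2 (1.41) were higher, and Ripk1, a kinase of death receptor signalling, was not called (0.13). Also not called were the scarce genes A730091E23Rik (0.62) and D930007J09Rik (-0.32) beside the cluster and Gm6093 (0.91) within it. Dsel and Ripk1 were called higher with library totals (0.30 and 0.32), and Ripk1 also without wild type replicate 2 (0.22, edgeR adjusted p = 0.0286). Kdsr was called lower without wild type replicate 1 (-0.20, edgeR adjusted p = 0.0453).

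**Figure D2:**
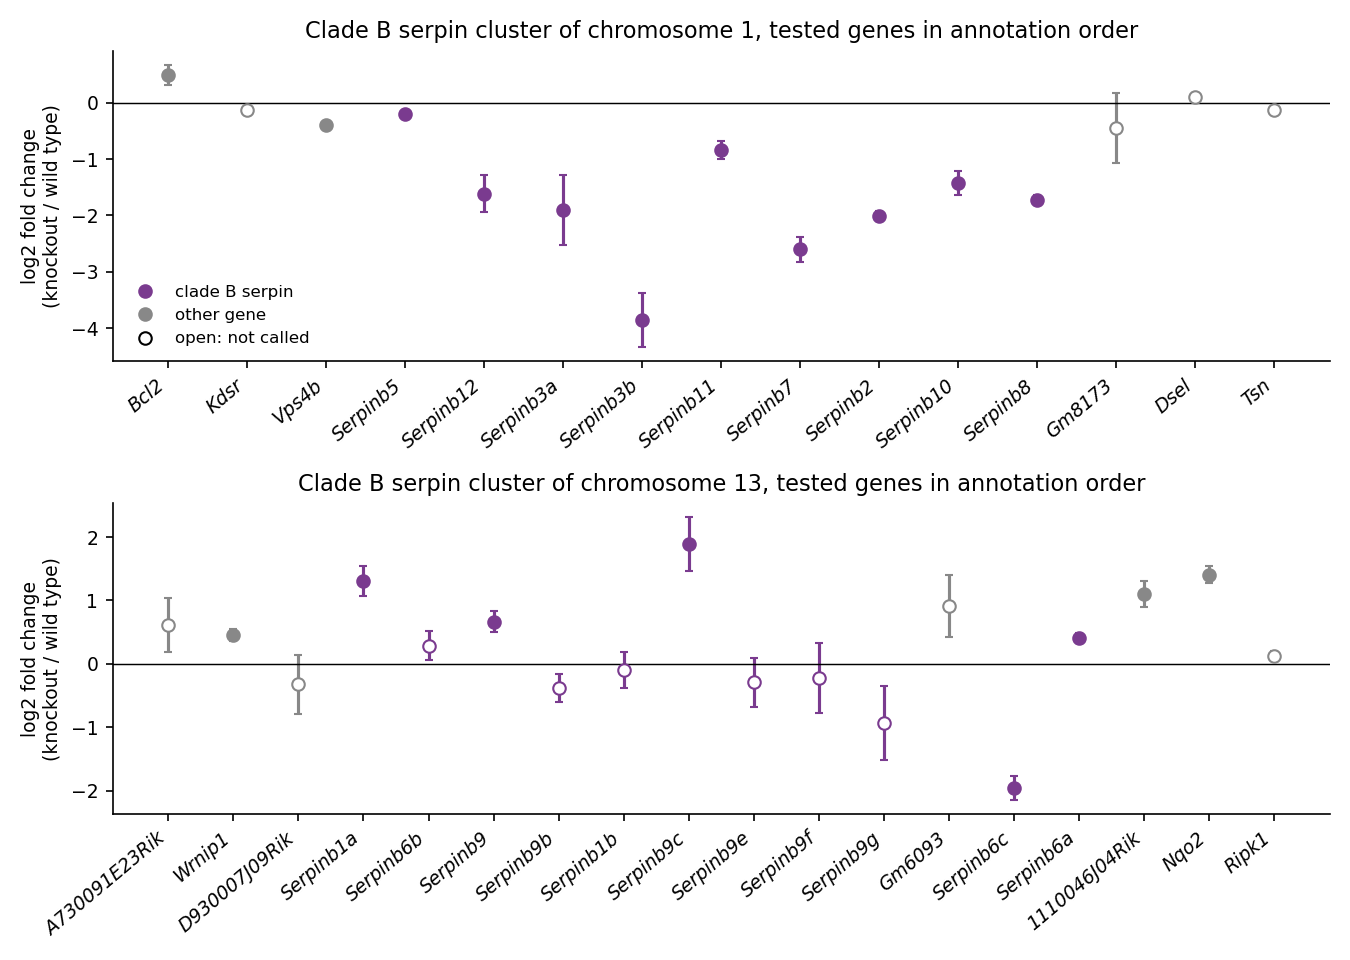
Log2 fold change (knockout over wild type, y axis) of tested genes in and beside the clade B serpin clusters, in annotation order along the x axis. Bars are SE, 3 libraries a group, filled points are called and open points are not. All 9 serpins of chromosome 1 lie below 0 with TMM scaling, Serpinb5 nearest to it and at -0.0025 with library totals, while those of chromosome 13 lie on both sides.

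Other serpins of the chromosome 1 cluster that are no members were lower as well. Serpinb7, called megsin, had 789, 536 and 651 counts in wild type and 63, 106 and 110 in knockout libraries, and fell by 2.60 ± 0.22 log2 units (SE, edgeR adjusted p = 9.08e-08). Serpinb3b had 340, 281 and 275 counts in wild type and 40, 7 and 6 in knockout libraries (log2 fold change -3.85 ± 0.48, edgeR adjusted p = 5.74e-05). Without knockout replicate 4, the library with 40 counts, the log2 fold change of Serpinb3b was -5.26. With the counts of Serpinb3a, Serpinb3b, Serpinb3c and Serpinb3d summed into 1 gene, an alternative added after the data were seen, the log2 fold change was -3.36. Serpinb10 fell by 1.43 log2 units, from 2.29 ± 0.382 to 0.855 ± 0.0893 CPM. GENCODE M21 lists Serpinb10 as a polymorphic pseudogene, and its value is uncertain, since 211 of its 3479 distinct stretches of 75 bases also occur in transcripts of Serpinb2, its neighbour and the far more abundant gene. Serpinb13, which human keratinocytes are known to express, had 0 counts in all 6 libraries, which at a limit of 3 counts allows at most 0.0349 CPM.

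On chromosome 13 the other serpins were scarce. Serpinb6c, an exception in that cluster, fell from 5.59 ± 0.0320 to 1.44 ± 0.453 CPM (log2 fold change -1.96 ± 0.19, edgeR adjusted p = 3.30e-07). Serpinb9c rose from 14, 30 and 18 counts to 41, 65 and 88 counts (log2 fold change 1.89 ± 0.42, edgeR adjusted p = 0.00141), but 326 of its 1923 distinct stretches of 75 bases also occur in Gm11385. Serpinb1b (-0.10), Serpinb9b (-0.38), Serpinb9e (-0.29), Serpinb9f (-0.22) and Serpinb9g (-0.93) were not called. Serpinb9f and Serpinb9g share 65.5% and 44.9% of such stretches with other transcripts, chiefly with each other and with Serpinb9h, and are uncertain. Of the members, Serpinb2 shared 9.00%, Serpinb3a 8.09% and Serpinb1a 0.311%, and the other 7 shared none. In all, 1 of the 10 other clade B serpins tested was higher, 4 were lower and 5 were not called, and 8 more were not tested. Of all genes tested, 24.8% were higher and 23.7% lower.

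The mix of clade B transcripts was different in knockout cells. All 28 clade B serpins together summed to 2316 ± 77.7 CPM in wild type libraries and 1073 ± 102 CPM in knockout libraries (SD, n = 3 each). Without Serpinb2 the sums were 862 ± 31.6 and 711 ± 47.7 CPM, so most of the drop was that of Serpinb2. Serpinb2 made up 62.8 ± 0.793% of the clade B sum in wild type and 33.6 ± 1.83% in knockout libraries. The share of Serpinb5 was 18.8 ± 1.11% and 35.4 ± 1.65%, and that of Serpinb6a 8.21 ± 0.473% and 23.5 ± 0.689%. These shares are of CPM, which do not allow for gene length. Per kilobase of exon, Serpinb2 made up 71.0 ± 0.701% in wild type and 42.7 ± 2.14% in knockout libraries. By that measure Serpinb5 made up 18.1 ± 1.03% and 38.4 ± 1.94%, and Serpinb6a 4.03 ± 0.253% and 12.9 ± 0.422%. The 10 members held 99.1% of the clade B sum in wild type and 99.4% in knockout libraries on average.

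**Figure D3:**
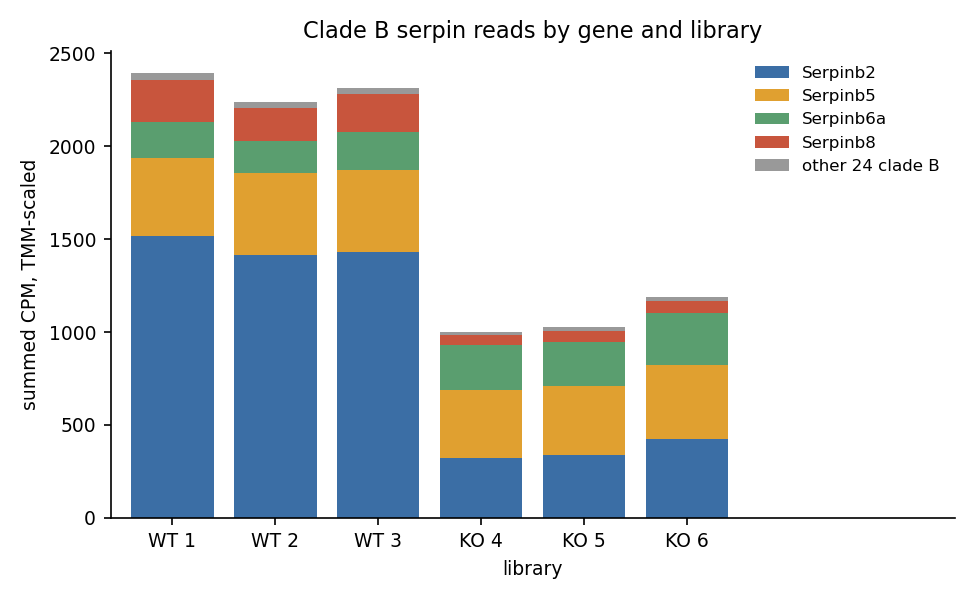
Summed CPM of all 28 clade B serpins in each library, stacked by gene, with wild type libraries 1 to 3 at left and knockout libraries 4 to 6 at right. Total bar height is 2239 to 2394 CPM in wild type libraries and 1002 to 1190 CPM in knockout libraries, and the Serpinb2 segment takes most of the difference.

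Levels of different genes were compared per kilobase of exon, with lengths from GENCODE M21, which count the exons of every transcript of a gene. In wild type cells Serpinb2 led with 619 ± 23.4 CPM per kb, followed by Serpinb5 with 158 ± 4.27 CPM per kb. Serpinb8 (41.9 ± 4.87 CPM per kb) and Serpinb6a (35.2 ± 2.68 CPM per kb) came next, and their libraries overlapped. Serpinb11 stood apart from both neighbours at 5.20 ± 0.764 CPM per kb, and the remaining 5 members were all below 1 CPM per kb. Among these, Serpinb6b overlapped with Serpinb9, and Serpinb1a with Serpinb12, which in turn overlapped with Serpinb3a.

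In knockout cells the order was different. Serpinb2 (154 ± 23.3 CPM per kb) and Serpinb5 (138 ± 6.36 CPM per kb) overlapped at the top. Serpinb6a (46.6 ± 4.80 CPM per kb) now stood above Serpinb8 (12.7 ± 1.03 CPM per kb), with no overlap between them. Serpinb1a reached 0.935 ± 0.154 CPM per kb and overlapped with Serpinb9, which overlapped with Serpinb6b. Serpinb12 and Serpinb3a remained lowest.

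The proteases that clade B serpins are known to meet moved in both directions. Of 27 listed proteases and partners, 21 were tested. Higher were 7, lower were 10, and 4 were not called, where 24.8% of all tested genes were higher and 23.7% lower. Their median log2 fold change was -0.04. With library totals 9 were higher and 8 lower, where 36.7% and 13.9% of all tested genes were. Plau, the gene of urokinase, is the main extracellular target of the product of Serpinb2. It stood at 81.9, 62.5 and 76.3 CPM in wild type libraries and 523, 523 and 614 CPM in knockout libraries, a rise of 2.91 ± 0.10 log2 units (SE, edgeR adjusted p = 2.58e-11), or 7.52-fold. The protease and its intracellular inhibitor thus stood in opposite order in each genotype, with Serpinb2 above Plau per kilobase in wild type (619 and 31.1 CPM per kb) and below it in knockout cells (154 and 234 CPM per kb).

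Other genes of the plasminogen system, named after their values were seen, differed less. Plaur, the urokinase receptor gene, went from 110 ± 19.2 to 108 ± 12.6 CPM and was not called (log2 fold change -0.03). Plat, which encodes tissue plasminogen activator, was lower by 0.49 on the log2 scale (log2 fold change -0.49, edgeR adjusted p = 0.00441), a call lost with library totals (-0.29, edgeR adjusted p = 0.0758). Serpine2, a secreted inhibitor of thrombin and urokinase, fell by 0.75 log2 units, from 41.6 ± 2.19 to 24.7 ± 1.80 CPM.

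**Figure D4:**
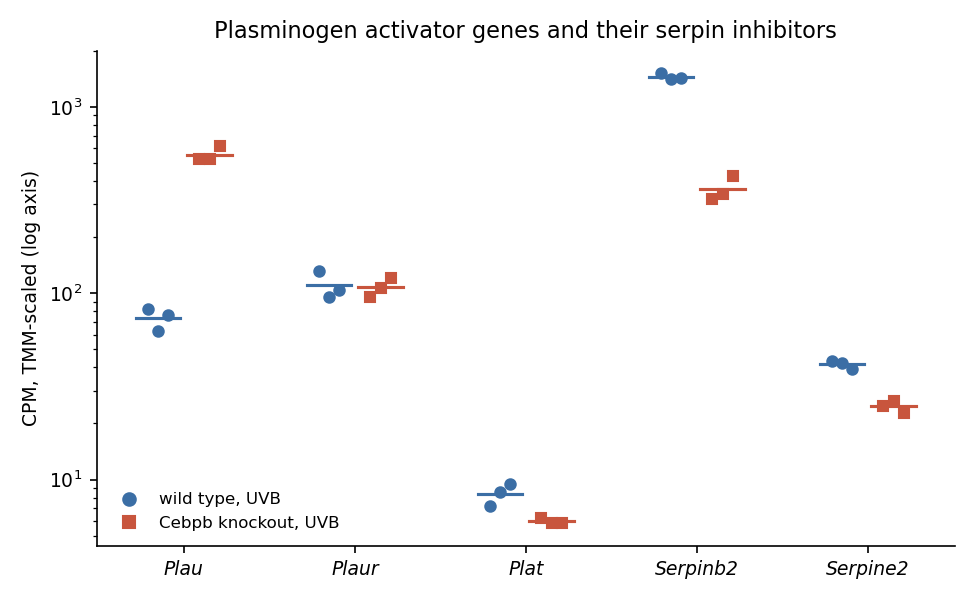
CPM of plasminogen activator genes, the urokinase receptor gene and serpin inhibitors in each library, on a log axis. Points are libraries (circles wild type, squares knockout, 3 each) and lines are group means. Plau lies higher and Serpinb2 lower in all 3 knockout libraries, while the groups of Plaur overlap.

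Casp8, the initiator caspase of death receptors, was higher in knockout cells by 1.09 log2 units and the cathepsin gene Ctsz by 1.01. Lower were Prss8, an epidermal membrane protease (log2 fold change -1.34), Ctsl, a lysosomal cathepsin inhibited by human SERPINB3 (-1.19), and the skin kallikrein gene Klk8 (-1.01). Ctsl went from 3301 ± 233 to 1442 ± 87.1 CPM.

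Protease inhibitors outside clade B also moved in both directions, and Slpi was far lower. Of 32 listed, 25 were tested. Higher were 6, lower were 13, and 6 were not called, where 24.8% of all tested genes were higher and 23.7% lower. Their median log2 fold change was -0.40. Slpi, a secreted inhibitor of neutrophil elastase, went from 174 ± 22.8 to 4.04 ± 1.35 CPM and fell by 5.43 ± 0.24 log2 units (SE). The cystatin genes Csta1 and Stfa3, which encode inhibitors of cathepsins, had log2 fold changes of -2.86 and -2.74. Wfdc2 rose by 2.28, the collagen chaperone serpin gene Serpinh1 by 0.55 and Spint2, an inhibitor of membrane serine proteases, by 0.50. Serpina12, with 0 counts in every knockout library, was at least 6.76-fold lower at a limit of 3 counts per library. The median of the list was -0.40 with that bound as well.

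Terminal differentiation genes are given beside the members because several clade B serpins are known from the outer epidermal layers. Of 18 tested, 17 were lower and 1, Cystm1, was higher (log2 fold change 2.10), where 23.7% and 24.8% of all tested genes were. The median log2 fold change of the 18 was -2.75, against 0.01 over all genes tested. With library totals 15 were lower, where 13.9% of all tested genes were. Among those averaging at least 2 CPM, the largest falls were those of Tgm3 (log2 fold change -6.55), a transglutaminase, Krtdap (-3.99) and the desmosomal cadherin gene Dsc1 (-3.64). Tgm3 had 8, 6 and 4 counts in knockout libraries, which alone fell short of the filter on low counts. The size of its fall is thus uncertain. The part of differentiation state in the serpin values was not tested.

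**Figure D5:**
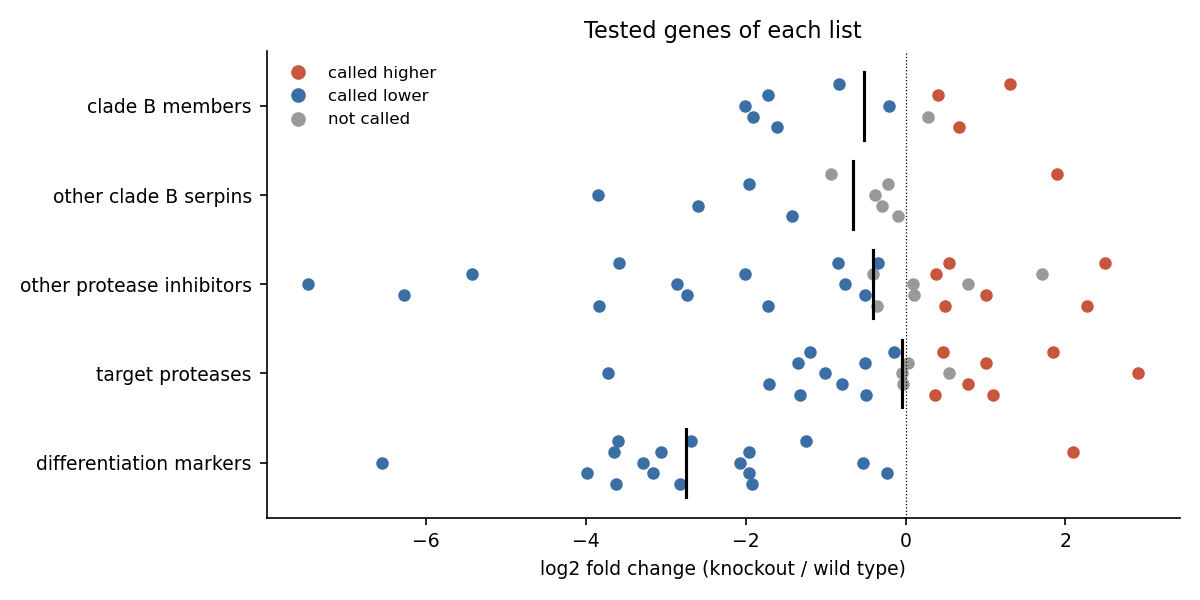
Log2 fold change (knockout over wild type, x axis) of the tested genes of each list, 1 point a gene, coloured by call with TMM scaling, with the list median as a black line. Medians are -0.52 for the members, -0.66 for other clade B serpins, -0.40 for other protease inhibitors, -0.04 for target proteases and -2.75 for differentiation markers. The leftmost inhibitor is Serpina12, with no counts in knockout cells, so its position is not a measured size.

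The genes whose levels over the 6 libraries were most like those of Serpinb2 were sought among 5179 called genes whose mean reached 10 CPM, by the Euclidean distance between centred log2 CPM values. Nearest were Scnn1a, a subunit of the epithelial sodium channel (distance 0.25, from 36.2 ± 2.88 to 9.46 ± 0.454 CPM), Dlc1 (0.27) and Lrrn4cl (0.28). Nearest to Serpinb1a, the member with the largest rise, were Celsr1, a planar polarity cadherin (distance 0.41, from 8.42 ± 0.775 to 20.7 ± 1.96 CPM), Svil (0.42) and the serine protease gene Prss22 (0.43). With 2 groups, such distances mostly rank genes by the size of their genotype difference.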

How the data were processed

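RNA-seq of 6 libraries was analysed from 1 deposited table of raw counts per gene. The submitters' processing notes name the builds mm39 and GRCm39 and the tools STAR, HTSeq, FastQC and DESeq2. Versions, annotation release and strand setting were not given in the sources used here. No column was left unused, and every row names a gene. Symbols, chromosomes, gene order and exon lengths were matched by identifier to GENCODE M21, which belongs to an older build. No gene positions on the build of the counts are therefore given. The promoter windows carry their own GRCm38.p6 coordinates, which are not those of GRCm39.

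Counts were fitted in edgeR 4.0.16 (R 4.3.3) by the robust quasi-likelihood method, with genotype as factor, filterByExpr (minimum count 10, 17659 of 55416 genes kept), TMM scaling and Benjamini-Hochberg adjustment. A gene could pass the filter through 1 group alone, as some scarce listed genes did. The lower calls of every list include 1 or more genes that passed through wild type libraries alone. Some higher calls of proteases and other inhibitors are genes that passed through knockout libraries alone. SE is the log2 fold change over the square root of F, and CPM use the TMM-scaled totals. The fit was tested on simulated data. Alternatives were other scalings, filters and tests (DESeq2 1.42.0, limma 3.58.1), thinned libraries and leaving out each library.

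Named genes are all members, other clade B serpins with at least 10 counts in any library, the 3 largest rises and 3 largest falls among called genes of each list that averaged 2 CPM or more, and the 3 genes nearest to the members with the largest rise and fall. Members and lists were chosen with earlier results of these data known. Shared stretches of 75 bases were counted over all GENCODE M21 transcripts. The result for 1 listed gene is not reported here.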

Additional observations from a re-analysis of the deposited data

How the results depend on the processing

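Under each of the alternatives run, 3 members were called higher and 4 to 6 lower, while of all genes tested 15.4% to 36.7% were called higher and 13.9% to 29.2% lower. With the 1 CPM filter those shares were 31.3% and 29.2%, and with no filter 15.4% and 14.8%. The lower count was 5 with library totals, without wild type replicate 2 and without knockout replicate 6, and 4 when genes had to average 1 CPM, since Serpinb3a and Serpinb12 were then not tested. Over all genes, library totals gave 2452 lower calls in place of 4192 and 6478 higher calls in place of 4387. With the 1 CPM filter, 0 other clade B serpins were called higher by edgeR, in place of 1, since Serpinb9c was not tested there. Directions turned in genes that were not called. Library totals gave 0.10 for Serpinb1b, 0.16 for Plaur, 0.061 for Kdsr and 0.069 for Tsn. Leaving out each library gave -0.39 to 0.11 for Serpinb1b, -0.59 to 0.13 for Serpinb9f, -0.13 to 0.11 for Plaur and -0.015 to 0.072 for Furin. No paired analysis was possible because the groups share no replicate numbers. Low counts limit the scarce members: the SE was 0.33 for Serpinb12 and 0.62 for Serpinb3a.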
